A study of Homo sapiens with 9 samples.

Results

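The 10 genes described here are receptors and coreceptors of Wnt proteins other than *FZD6*: the Frizzled genes *FZD1*, *FZD2*, *FZD5* and *FZD7*, the coreceptors *LRP5* and *LRP6*, and the single-pass receptors *ROR1*, *ROR2*, *RYK* and *PTK7*. They were chosen by symbol out of 27860 genes, with no measured value in the rule but with earlier results of these data known. RNA-seq was performed on 9 libraries of DU145, an established human prostate cancer cell line, 3 for each of 3 groups: a scrambled hairpin as control (scramble), *FZD6* shRNA1 and *FZD6* shRNA2. All groups are the same line with the genotype label WT, and they differ in the hairpin they express. The labels call each set of 3 a triplicate without saying whether the libraries came from separate cultures, so the p-values measure the spread between these libraries, which may be technical. Whether the cells of a group came from 1 clone is not given in the sources used here. The question was whether the other Wnt receptors followed or offset the loss of *FZD6*.

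Wnt proteins are secreted, lipid-modified ligands. In the β-catenin branch, a Wnt bridges a seven-pass Frizzled and the coreceptor LRP5 or LRP6 at the cell surface, which leads to stabilization of β-catenin and transcription through TCF/LEF factors. In the β-catenin-independent branches, Frizzleds work with ROR1, ROR2, RYK or PTK7 and signal to the cytoskeleton and cell polarity. FZD6 is mostly placed in these latter branches.

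Values are FPKM, fragments per kilobase of transcript and per M mapped fragments, summed over the transcript entries of each gene. They are scaled for length, so levels of different genes can be compared. Estimated depth was 32.5 to 40.7 M fragments per library, and the mean correlation of a library with the other 8 was 0.9489 to 0.9563, with no library set apart. The epithelial markers were present (*EPCAM* at 17.3 to 18.2 FPKM in scramble and 18.8 to 23.4 with knockdown, *CDH1* at 4.46 to 5.02 and 3.38 to 3.97, *KRT8* at 202 to 238 and *KRT18* at 260 to 296 over all 9 libraries), and the part of the *EPCAM* and *CDH1* differences in the results was not tested. The leukocyte marker *PTPRC* was listed at 0. The endothelial marker *PECAM1* was at most 0.0213 FPKM and the fibroblast markers *COL1A1* and *COL3A1* summed to at most 0.455 FPKM. In a bulk sample, fewer cells that express a gene and less RNA per cell cannot be told apart.

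The targeted gene was measured first. *FZD6* was at 20.9, 20.5 and 20.0 FPKM in the scramble libraries, at 9.47, 10.2 and 9.80 with shRNA1 and at 7.84, 8.79 and 7.69 with shRNA2. Every knockdown library lay below every scramble library. The log2 fold change was −0.99 with shRNA1 (limma, adjusted p = 0.000329) and −1.24 with shRNA2 (adjusted p = 4.51e-05). The reduction was deeper with shRNA2, by −0.25 on the log2 scale (adjusted p = 0.0273). That call ended when scramble replicate 2, any shRNA1 library, or shRNA2 replicate 1 or 3 was left out, with adjusted p between 0.0521 and 0.0986. It also ended with only the 6 libraries compared (0.0928) and with protein-coding accessions only, where the difference was −0.17 (0.206).

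In the control cells the members spanned a wide range of levels. *LRP5*, a single-pass coreceptor of Frizzleds, was the highest at 24.2 ± 0.352 FPKM (SD, n = 3), above *FZD6* itself at 20.5 ± 0.441. *RYK*, a receptor with a Wnt-binding WIF domain and an inactive kinase domain, followed at 13.1 ± 0.763, and *FZD2* was the most abundant Frizzled among the members at 10.2 ± 0.0617. *ROR1* was at 7.49 ± 0.530 and *PTK7*, a pseudokinase of planar cell polarity, at 5.53 ± 0.222. *LRP6* at 4.57 ± 0.231 and *FZD7* at 4.56 ± 0.195 did not differ beyond their spread, while each other pair of neighbours from *LRP5* down to *FZD1* had ranges that did not overlap. *FZD5* was at 1.99 ± 0.117 and *FZD1* at 1.07 ± 0.0648. *ROR2* was close to absent at 0.0873 ± 0.0323, so the ROR receptor transcripts of these cells were almost entirely those of *ROR1*.

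**Figure D1:**
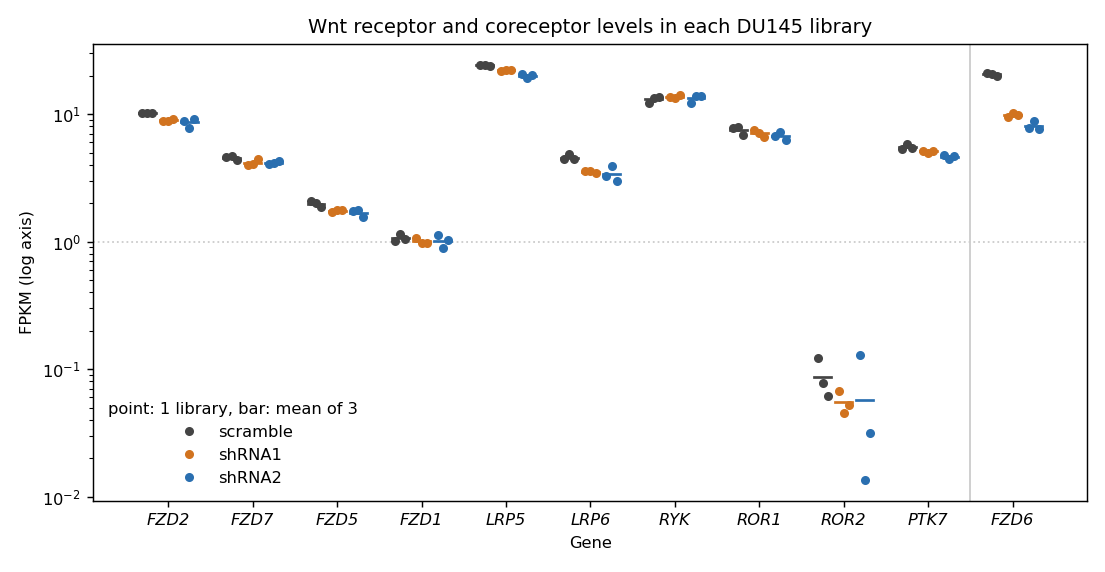
FPKM on a log axis of the 10 receptor and coreceptor genes and, right of the grey line, of *FZD6*, with 1 point per library, a bar at the mean of the 3 libraries of a group, and a dotted line at 1 FPKM. *LRP5* is the highest and *ROR2* the lowest of the 10, and *FZD6* shows the widest gap between scramble and knockdown, from 20.0 FPKM or more to 10.2 or less.

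Of the 10 genes, 9 averaged 1 FPKM or more across the libraries and were tested, and *ROR2* was not. *FZD1* passed this filter narrowly with a mean of 1.03. With both shRNAs pooled (6 knockdown against 3 scramble libraries, limma on log2(FPKM + 1), Benjamini-Hochberg adjustment over 12509 genes), 5 of the 9 fell and 0 rose: *FZD2*, *FZD5*, *LRP5*, *LRP6* and *PTK7*. Among all tested genes 7.10% were called lower and 13.5% higher. The median log2 fold change was −0.14 over the 9 members and 0.03 over all tested genes, and 8 of the 9 lay below zero against 41.8% of all genes. The count rests on the 3 control libraries: without scramble replicate 1 or without replicate 2 the only member called was *LRP6*, and without replicate 3 the 2 called were *LRP6* and *FZD5*. Without shRNA1 replicate 3 the count was 6, with *FZD7* added.

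*LRP6*, the coreceptor whose cytoplasmic motifs recruit axin when phosphorylated, had the largest change. It was at 4.41, 4.83 and 4.46 FPKM in scramble, at 3.57, 3.60 and 3.43 with shRNA1 and at 3.28, 3.91 and 3.00 with shRNA2. All 6 knockdown libraries lay below all 3 scramble libraries, with a mean 24.1% lower. The log2 fold change was −0.32 (SE 0.0604, adjusted p = 0.00936), and the two-sided exact permutation test gave p = 0.0119, the smallest that 84 arrangements allow. *LRP6* was called lower in all 20 alternative limma analyses of this comparison, with adjusted p from 0.0046 to 0.0494.

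Its relative *LRP5* was at 24.3, 24.4 and 23.8 FPKM in scramble, at 21.8, 22.1 and 22.3 with shRNA1 and at 20.8, 19.3 and 20.1 with shRNA2. The 3 groups did not overlap with each other, and the order was scramble, shRNA1, shRNA2 from high to low. The mean with knockdown was 12.9% lower (log2 fold change −0.19, SE 0.0473, adjusted p = 0.0233). Leaving out any 1 scramble library ended the call, with adjusted p of 0.0833, 0.0877 and 0.0581 for replicates 1, 2 and 3.

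*FZD2*, a Frizzled used by WNT5A and by canonical Wnts, was at 10.2, 10.2 and 10.3 FPKM in scramble, at 8.89, 8.82 and 9.18 with shRNA1 and at 8.84, 7.84 and 9.15 with shRNA2. Its scramble libraries were close together and every knockdown library was below them, by 14.3% on average (log2 fold change −0.20, SE 0.0442, adjusted p = 0.0153). Without scramble replicate 1, 2 or 3 the adjusted p was 0.0558, 0.0587 and 0.0543.

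*FZD5* was at 2.09, 2.02 and 1.86 FPKM in scramble, at 1.71, 1.77 and 1.77 with shRNA1 and at 1.73, 1.77 and 1.57 with shRNA2. The gap between the lowest scramble and the highest knockdown library was small, but the groups did not overlap (13.5% lower, log2 fold change −0.14, SE 0.0351, adjusted p = 0.0282). Without scramble replicate 1 or 2 the adjusted p was 0.116 and 0.104, and with a mean-variance trend and robust moderation in limma it was 0.0611.

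*PTK7* was at 5.35, 5.78 and 5.45 FPKM in scramble, at 5.15, 4.97 and 5.16 with shRNA1 and at 4.79, 4.44 and 4.68 with shRNA2. As for *LRP5*, the 3 groups were ordered scramble, shRNA1, shRNA2 with no overlap (12.0% lower, log2 fold change −0.15, SE 0.0452, adjusted p = 0.0426). This call was the least stable of the 5. It was kept in 7 of 20 alternative limma analyses and ended without any 1 scramble library (adjusted p = 0.0841, 0.163 and 0.0943 for replicates 1 to 3) and without shRNA1 replicate 2 (0.0615), shRNA2 replicate 1 (0.0691) or shRNA2 replicate 3 (0.0754). It also ended without the filter (0.0605), after quantile normalization (0.0593), with the replicate block (0.0784) and with protein-coding accessions only (0.184).

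The other 4 tested members were not called. *FZD7* was at 4.63, 4.72 and 4.34 FPKM in scramble, at 3.99, 4.09 and 4.44 with shRNA1 and at 4.10, 4.11 and 4.28 with shRNA2, so that shRNA1 replicate 3 overlapped the controls (log2 fold change −0.11, 95% interval −0.19 to −0.03, adjusted p = 0.0647). *ROR1* ranged from 6.89 to 7.87 FPKM in scramble and from 6.23 to 7.54 with knockdown (log2 fold change −0.10, 95% interval −0.24 to 0.03). *FZD1* ranged from 1.02 to 1.15 and from 0.898 to 1.13 (log2 fold change −0.04, 95% interval −0.13 to 0.05). *RYK* was the only tested member with a mean above that of the controls, at 12.2 to 13.6 FPKM in scramble and 12.2 to 14.1 with knockdown (log2 fold change 0.05, 95% interval −0.07 to 0.16, adjusted p = 0.56). In this pooled fit, a rise in *RYK* above 0.16 on the log2 scale lies outside its interval. The pooled intervals of the other 8 tested members end at or below 0.05 in this fit. With the length trend described below removed, the interval of *FZD1* reached 0.16 pooled and 0.19 with each shRNA, and the pooled one of *ROR1* reached 0.06. With shRNA1 alone the interval of *RYK* reached 0.21. For low genes such as *FZD1*, the log2(FPKM + 1) scale understates fold changes, so these bounds are not bounds on the change in expression itself. *ROR2*, below the filter, was at 0.123, 0.0772 and 0.0613 FPKM in scramble and between 0.0135 and 0.128 in the knockdown libraries, values near the floor that rest on few fragments.

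By group overlap, 5 of the 9 tested members lay wholly below the controls when the 6 knockdown libraries were pooled, where 9.46% of all tested genes did. The two-sided exact permutation test over 84 arrangements gave p = 0.0119 for *FZD2*, *FZD5*, *LRP6* and *FZD6*, p = 0.0238 for *FZD7*, *LRP5* and *PTK7*, and p from 0.155 to 0.429 for the other tested members. With 3 libraries against 3, this test cannot go below 0.1.

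The comparisons of single hairpins with the control share the scramble libraries. With shRNA1, 3 of 9 tested members were called lower, *LRP6* (log2 fold change −0.30, adjusted p = 0.0285), *FZD2* (−0.18, 0.0454) and *LRP5* (−0.13, 0.031), and 0 were called higher. Over all genes 7.19% were called lower and 11.7% higher with shRNA1. Leaving out any 1 scramble or shRNA1 library brought this count to 0, and the *FZD2* call also ended without shRNA2 replicate 1 (adjusted p = 0.0585). The *FZD2* call with shRNA1 further depended on scaling and filter, with an adjusted p of 0.0649 after median centring, 0.0771 after quantile normalization and 0.0665 without the filter, and it was kept in 10 of 21 alternative limma analyses. *FZD5* (−0.12, 0.0747), *PTK7* (−0.10, 0.094) and *FZD7* (−0.11, 0.117) did not pass. With shRNA1, 5 members lay wholly below the controls, where 17.9% of all genes did.

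With shRNA2, 5 of 9 were called lower and 0 higher: *LRP6* (−0.34, adjusted p = 0.012), *LRP5* (−0.26, 0.00196), *FZD2* (−0.23, 0.0138), *PTK7* (−0.21, 0.0061) and *FZD5* (−0.15, 0.027). Over all genes 11.4% were called lower and 15.3% higher with shRNA2. Leaving out 1 library left 4 or 5 members called. The *FZD5* call was the one that ended, without scramble replicate 1 (adjusted p = 0.0848), scramble replicate 2 (0.0823) or shRNA2 replicate 3 (0.0698), and also with only the 6 libraries compared (0.0759) or with trend and robust moderation (0.0527). With shRNA2, 6 members lay wholly below the controls, where 16.6% of all genes did, the sixth being *FZD7*.

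**Figure D2:**
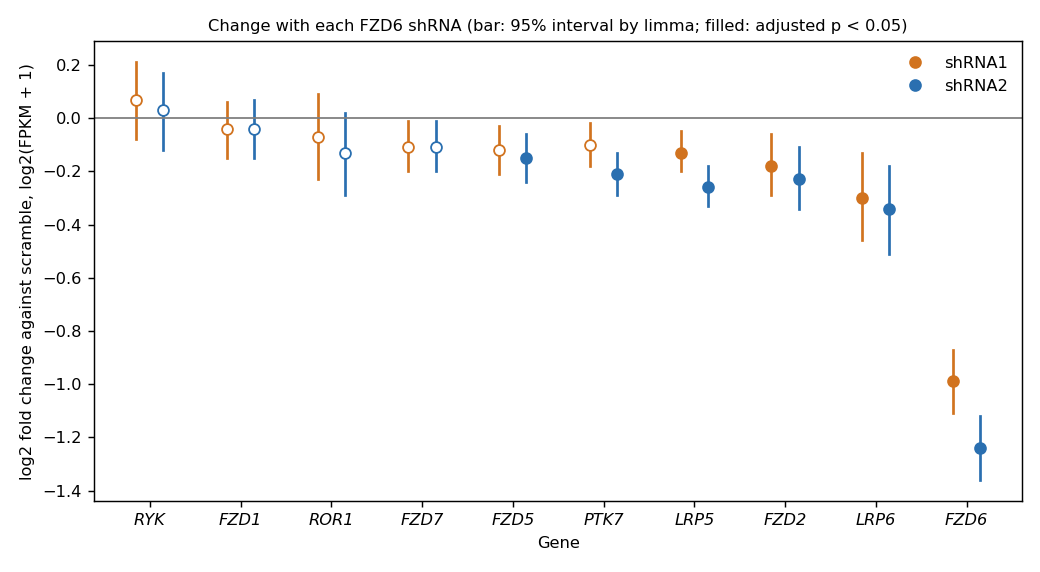
Log2 fold change against scramble on the log2(FPKM + 1) scale with its 95% limma interval, for shRNA1 and shRNA2, in the 9 tested members and *FZD6*, with filled points for an adjusted p under 0.05. The members lie between 0.07 and −0.34, while *FZD6* lies at −0.99 and −1.24.

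Between the hairpins directly, 0 of 9 members differed by limma (4.79% of all genes were lower with shRNA2 than with shRNA1 and 1.92% higher), with 2 at an unadjusted p under 0.05. *LRP5* was lower with shRNA2 by a log2 difference of −0.13 (95% interval −0.20 to −0.06, adjusted p = 0.0524), and it passed the threshold without shRNA2 replicate 1 (adjusted p = 0.0419). *PTK7* was lower with shRNA2 by −0.11 (95% interval −0.20 to −0.03, adjusted p = 0.112). These 2 genes had shRNA2 libraries wholly below the shRNA1 libraries, which 14.5% of all genes did. For the other 7 tested members the estimated differences lay between −0.06 and 0.01.

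FPKM of Frizzleds can be added, so the whole Frizzled pool was summed in each library. The 10 Frizzled genes came to 40.5, 40.3 and 39.5 FPKM in scramble, to 26.9, 27.6 and 28.1 with shRNA1 and to 25.5, 25.2 and 25.4 with shRNA2. *FZD6* made up 51.1% ± 0.482 of this pool in the control cells, 35.7% ± 1.13 with shRNA1 and 32.0% ± 2.58 with shRNA2 (SD, n = 3). Without *FZD6*, the 9 other Frizzleds came to 19.6 ± 0.132 FPKM in scramble, 17.7 ± 0.479 with shRNA1 and 17.2 ± 0.765 with shRNA2. The sum of the 9 was thus lower in every knockdown library, 16.4 to 18.3, than in every scramble library, 19.5 to 19.7. The difference for *FZD6* was −11.5 FPKM with knockdown and that for the 9 others −2.10 FPKM, a difference in the same direction. Summed over the 4 Frizzled members alone the difference was −2.18 FPKM, so the mean of the other 5 Frizzleds together was slightly higher with knockdown. For *FZD3*, *FZD4*, *FZD8* and *FZD9* the pooled knockdown libraries overlapped the controls, and *FZD10* was listed at 0, so no rise beyond the spread was seen with pooling. With shRNA1 alone, *FZD9* lay wholly above the controls, at 0.434 to 0.501 FPKM against 0.360 to 0.432, and with shRNA2 it overlapped them. These sums are descriptions and were not tested.

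**Figure D3:**
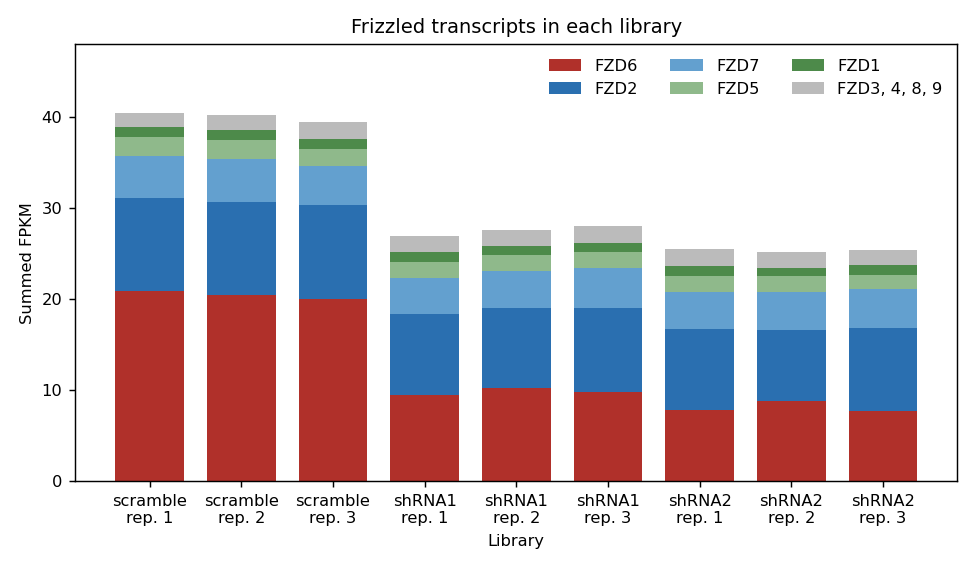
FPKM of the Frizzled genes stacked for each of the 9 libraries, with *FZD6* at the base and *FZD3*, *FZD4*, *FZD8* and *FZD9* together at the top (*FZD10* was listed at 0). The total is 39.5 to 40.5 FPKM in scramble and 25.2 to 28.1 with knockdown, and the part above *FZD6* is no taller with knockdown than in scramble.

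The differences varied with transcript length. Across 12295 tested genes with an annotated length, the Spearman correlation of length with the log2 fold change was −0.430 (genes are not independent replicates, and they share the same libraries), so longer transcripts were on average lower with knockdown. Most members are long: *LRP6* is 10020 bases, *FZD1* 6963, *FZD5* 6708, *ROR1* 5832, *LRP5* 5159, *PTK7* 4272 and *FZD7* 3859, with *RYK* at 2934 and *FZD2* at 2112, against a median of 2625 over all genes. After each library's length trend was removed, which brought the correlation to 0.0170, 2 of the 9 members remained called lower with knockdown, where 5.94% of all genes were. They were *FZD2* (log2 fold change −0.26, adjusted p = 0.0069, at its annotated 2112 bases, a length taken up below) and *LRP6* (−0.19, 0.013). *LRP5* (−0.15, 0.0941), *PTK7* (−0.14, 0.0877) and *FZD5* (−0.06, 0.261) no longer passed, and *FZD1* went from −0.04 to 0.04. Of the *LRP6* difference, −0.13 lay in the length trend.

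Per hairpin, removal of the length trend left *FZD2* and *LRP6* with shRNA1, where 6.07% of all genes were called lower, and *FZD2*, *LRP5*, *LRP6* and *PTK7* with shRNA2, where 12.4% were. The annotated 2112 bases of *FZD2* are fewer than the 3779 bases of the single-exon locus for which its FPKM was given. Its values after removal at 2112 bases thus rest on too short a length. With the locus span as its length, a choice made after seeing the data, *FZD2* was at −0.20 (adjusted p = 0.0364) for the pooled knockdown. The adjusted p was then 0.0931 with shRNA1, where the call was not kept, and 0.0292 with shRNA2.

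**Figure D4:**
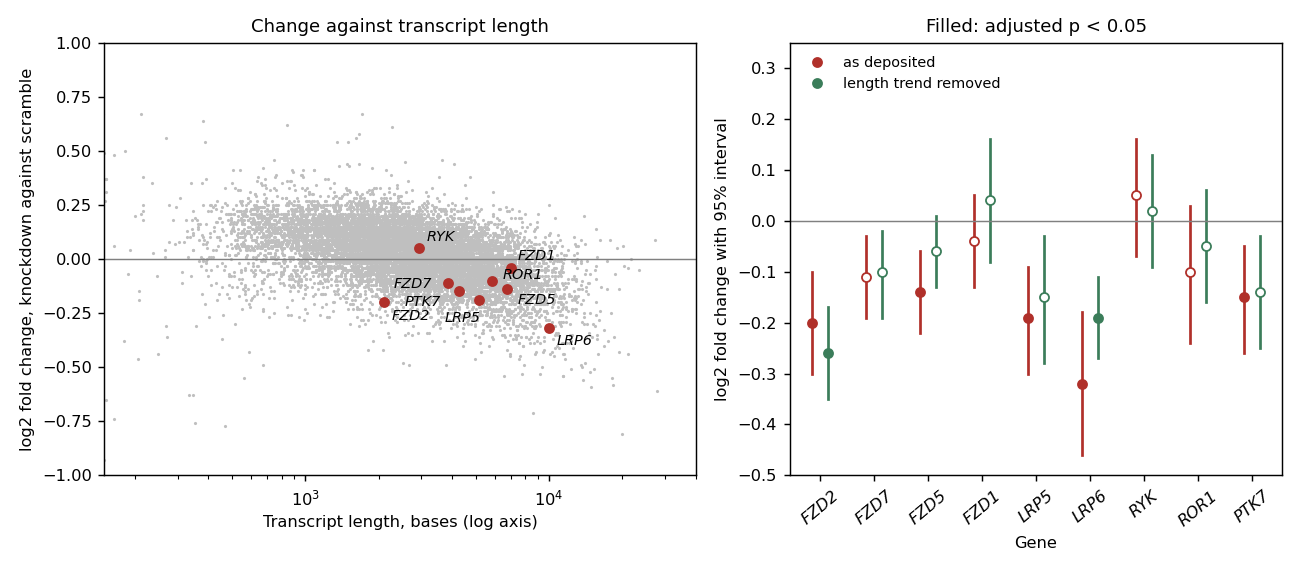
Left, log2 fold change of knockdown against scramble by transcript length (log axis) for 11863 genes in grey and the 9 tested members in red, with 432 genes outside the axes. Right, the members' log2 fold change with its 95% limma interval before and after removal of the length trend, filled at an adjusted p under 0.05. *FZD2* and *LRP6* are filled in both, with *FZD2* at its annotated 2112 bases and not at its locus span.

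By transcript entry, the members were mostly carried by 1 RefSeq transcript each. *LRP6* was carried by NM_002336 on chromosome 12 at 12116026 to 12267044, *FZD2* by NM_001466 on chromosome 17 at 44557484 to 44561262, and *LRP5* by NM_002335 on chromosome 11 at 68312591 to 68449275 (hg38). Fragments per library, estimated from the confidence bounds, were 1185 to 2087 for *LRP6*, 1038 to 1589 for *FZD2* and 218 to 322 for *FZD1*. For genes with more than 1 entry, such as *LRP5*, the bounds do not give a fragment count. Tested entry by entry over 19658 entries, limma called 248 and no member entry among them, with adjusted p of 0.0602 for *LRP6* and 0.0922 for *FZD2*. Even *FZD6* passed only narrowly at this level, with NM_003506 at −1.03 (adjusted p = 0.0498) and NR_133921 at −1.13 (0.0494). The lack of member calls here is thus no evidence that the members did not change. The count of 248 came to 23 without scramble replicate 2 and to 434 without shRNA2 replicate 2. *ROR1* had a short entry, NM_001083592, at 1.26 ± 0.296 FPKM in scramble, 0.910 ± 0.282 with shRNA1 and 0.764 ± 0.147 with shRNA2, beside the long one at 6.24 ± 0.234, 6.18 ± 0.194 and 5.98 ± 0.456. The short entry was below the filter and was not tested. The split of *PTK7* over 7 entries was unstable between libraries: its leading entry NM_002821 ranged from 1.72 to 3.76 FPKM within scramble alone. Without its noncoding entries, *PTK7* with shRNA2 was at −0.10 (adjusted p = 0.399).

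Promoter sequence was examined for features shared by members that moved and did not move. RefSeq windows of GRCh38.p14, from 250 bases before to 50 after a start site, matched 7 of the 10 genes (*FZD1*, *FZD5*, *LRP5*, *ROR1*, *ROR2*, *RYK* and *PTK7*, the last with 2 start sites). They held 25 to 52 CpG dinucleotides, against a median of 14.0 over all 35116 promoters. A TCF/LEF core (CTTTG followed by AT, AA, TT or TA, on either strand) was in 0 of the 7, and in 13.8% of all promoters. The GC box GGGCGG, on either strand, was in 6 of the 7, all but *ROR1*, and in 45.0% of all promoters. The 30 bases around the match nearest the start are shown for 3 members called lower and for *RYK*, which was not, with the GC box in capitals, on the strand of the gene.
FZD5, chr2:207769896-207769925, minus strand: gtgacccgggcgGGGCGGgagagggcagcc
LRP5, chr11:68312526-68312555, plus strand: ggcggcggcgggGGGCGGagacgcggcgcg
PTK7, chr6:43076255-43076284, plus strand: gggggcgtcgtgGGGCGGggcttggcggcg
RYK, chr3:134250911-134250940, minus strand: gcccaggccggcCCGCCCagagcgaaaggt
The match was present in the 3 called genes shown and in *RYK* alike, and it is a description of these windows only. *FZD2* and *LRP6*, also called lower, had no window to examine.

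The rest of the receptor step was read from lists of 68 genes, of which 21 were tested. With pooled knockdown 1 of the 21 was called lower and 1 higher, where 7.10% and 13.5% of all tested genes were. The one called higher was *DKK1*, a secreted inhibitor that binds LRP5 and LRP6. It was at 34.5 ± 0.749 FPKM in scramble, 44.4 ± 0.275 with shRNA1 and 38.8 ± 1.44 with shRNA2 (log2 fold change 0.26, adjusted p = 0.0217). The 6 knockdown libraries ranged from 37.4 to 44.6 FPKM and the controls from 33.7 to 35.1. The pooled call ended without scramble replicate 1, 2 or 3 (adjusted p = 0.0862, 0.0722 and 0.0583) and after removal of the length trend (0.19, 0.0748). *DKK1* was called higher with each shRNA (0.35, 0.00192 with shRNA1 and 0.16, 0.0103 with shRNA2), and it was lower with shRNA2 than with shRNA1 (−0.19, 0.0161). That difference between the hairpins did not pass without shRNA1 replicate 1, 2 or 3 (0.0654, 0.0587 and 0.0619) or with only the 6 libraries compared (0.0586), and the call with shRNA2 ended after removal of the length trend (0.10, 0.0769).

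The one called lower was *LGR4*, a receptor for R-spondins, which protect Frizzleds and LRP6 from removal from the cell surface. It was at 13.8 ± 0.393 FPKM in scramble, 12.1 ± 0.368 with shRNA1 and 11.0 ± 1.14 with shRNA2 (log2 fold change −0.24, adjusted p = 0.0314). By hairpin, *LGR4* was called with shRNA2 (−0.30, 0.0129) but not with shRNA1 (−0.18, 0.0909), which passed with only the 6 libraries compared (0.0168). With the length trend removed the pooled value was −0.20 (adjusted p = 0.0395), and at an adjusted p of 0.0619 with the replicate block added to that removal. The pooled call ended without scramble replicate 1, 2 or 3 (0.0775, 0.118 and 0.0861) without shRNA1 replicate 3 (0.0532) and without the filter (0.0525). *ZNRF3*, the E3 ligase that removes Frizzleds, was at 2.01 ± 0.0155, 1.92 ± 0.0324 and 1.93 ± 0.105 FPKM (log2 fold change −0.04, adjusted p = 0.333).

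Of 19 Wnt ligand genes, 3 were tested. *WNT7B* was by far the most abundant at 26.4 ± 0.149 FPKM in scramble, 26.0 ± 0.362 with shRNA1 and 25.8 ± 0.909 with shRNA2 (log2 fold change −0.02, adjusted p = 0.539). *WNT3* was at 3.24 ± 0.355, 2.61 ± 0.143 and 2.84 ± 0.209 FPKM and was called lower with shRNA1 (−0.23, adjusted p = 0.0492), a call that ended without any 1 scramble or shRNA1 library or shRNA2 replicate 1, with adjusted p from 0.0662 to 0.143. It ended as well with a pseudocount of 0.1 (0.0503), without the filter (0.0803), after quantile normalization (0.0676), with the length trend removed (0.052) and with only the 6 libraries compared (0.0552). *WNT10B* was at 1.54 ± 0.194, 1.45 ± 0.147 and 1.77 ± 0.173. *WLS*, which carries Wnts to the cell surface, was at 24.1 ± 0.577, 23.8 ± 0.472 and 24.5 ± 0.822 FPKM, and the acyltransferase *PORCN* at 5.43 ± 0.310, 5.50 ± 0.0770 and 4.79 ± 0.334, and neither was called in any comparison.

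The other antagonists and receptor partners gave calls with single hairpins. With shRNA1, *KREMEN1*, a DKK1 receptor, was at −0.20 (adjusted p = 0.0217) and *LRP10* at −0.11 (0.0293). Both calls ended when any 1 shRNA1 library or scramble replicate 1 or 2 was left out, and that of *LRP10* also without scramble replicate 3, with adjusted p from 0.0533 to 0.0743 for *KREMEN1* and from 0.0578 to 0.0976 for *LRP10*. With the length trend removed neither passed (*KREMEN1* −0.13, 0.133, *LRP10* −0.02, 0.769). With shRNA2, *SFRP1*, a secreted Wnt-binding antagonist, was at −0.13 (0.0204), with adjusted p of 0.0575, 0.0581 and 0.0556 without scramble replicates 1, 2 and 3 and 0.0547 without shRNA2 replicate 3. *LRP10*, an LDL receptor family member, had the largest change on the lists with shRNA2, at 43.8 ± 0.491 FPKM in scramble, 40.6 ± 0.328 with shRNA1 and 33.1 ± 0.817 with shRNA2 (log2 fold change −0.39, adjusted p = 0.000292). It was also lower with shRNA2 than with shRNA1 (−0.29, adjusted p = 0.00129). The 5 Frizzleds outside the members, *FZD3*, *FZD4*, *FZD8*, *FZD9* and *FZD10*, were all below the filter, with *FZD3* the highest at 0.563 ± 0.0458 FPKM in scramble, 0.548 ± 0.0572 with shRNA1 and 0.646 ± 0.0957 with shRNA2. *FZD9* was at 0.360, 0.381 and 0.432 FPKM in scramble, at 0.501, 0.434 and 0.437 with shRNA1 and at 0.349, 0.311 and 0.407 with shRNA2. Its shRNA1 libraries lay wholly above the controls, with a mean 16.9% higher, while its mean with shRNA2 was 9.05% below that of scramble. By limma without the filter, shRNA1 gave a log2 fold change of 0.07 (adjusted p = 0.289). These values rest on an estimated 25 to 41 fragments per library. Over the 21 tested genes of the lists pooled knockdown gave a median log2 fold change of −0.02, against 0.03 over all genes.

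The genes with the pattern most like that of *LRP6*, by Pearson correlation of log2(FPKM + 1) over the 9 libraries, were *ARHGEF12* (0.998), *CENPF* (0.996), *KIRREL1* (0.992), *EIF4G3* (0.992) and *MED13L* (0.990). The 9 points hold the knockdown difference itself, and 4 of these 5 genes have transcripts of 5762 bases or more (*MED13L* 14615, *CENPF* 10307, *ARHGEF12* 6891, *EIF4G3* 5762), *KIRREL1* being the exception at 2874. *CENPF* was at 27.8 FPKM in scramble and 20.5 with knockdown, and *ARHGEF12* at 33.1 and 25.8.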

How the data were processed

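The authors prepared stranded mRNA libraries from the 9 DU145 samples, aligned them with STAR and obtained FPKM from Cufflinks (versions not given in the sources used here). The deposited FPKM tables list 83497 RefSeq entries each, with confidence bounds, on hg38 loci per the labels, although the methods name a mouse build. Read counts are not listed, and count models were not used. Depth was inferred from the bounds of single-transcript genes.

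FPKM were summed per gene after matching accessions to RefSeq (GRCh38.p14). Of 73240 accessions 595 did not match, with 0.387% to 0.431% of the summed FPKM, and 42 genes with an entry marked unusable were left out. Genes averaging 1 FPKM or more were tested on log2(FPKM + 1) by limma 3.58.1 in R 4.3.3, pooled knockdown in a model of 2 groups and the hairpins in a model of 3, adjusted by Benjamini-Hochberg and called under 0.05. Fold changes on this scale understate those of low genes. Members were also tested by two-sided exact permutation. Length trends used GENCODE v29 transcript lengths and a lowess span of 0.3, with a length for 98.3% of tested genes. On simulated data for the pooled comparison over 12509 genes, limma called 64% of 200 genes planted at a log2 change of 0.26. It called 93.5% of those planted at 0.5 and 0 genes with none planted. Whether these rates hold for the measured libraries, which carry the length trend described above, was not tested.

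The members, lists and tests were chosen with earlier results of these data known. Named genes are the members, *FZD6*, up to 5 called genes of each list (*ZNRF3*, *WNT7B*, *WNT10B*, *WLS*, *PORCN*, *FZD3* and *FZD9* were added after their values were seen), and the 5 genes most correlated with the member of largest change. Alternatives covered the pseudocount, filter, scaling, length, replicate block, entries summed, form of the test and leaving out each library. Python 3.11.15 with pandas 2.3.3 and numpy 2.4.6 made the tables, and matplotlib 3.10.9 the plots.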

Additional observations from a re-analysis of the deposited data

Results flagged for a closer look

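Among 18 measures tested over the 6 knockdown libraries for a library far from the others, 2 were singled out, where chance singles out about 1 in 20 groups, or 0.900 of 18. *FZD2* in shRNA2 replicate 2 was at 7.84 FPKM, with the nearest library at 8.82 (gap over range 0.729). *FZD5* in shRNA2 replicate 3 was at 1.57 FPKM, with the nearest at 1.71 (0.695).

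The effects of the hairpins differed by the direct limma test for 3 named genes. For *FZD6*, the shRNA2 value minus the shRNA1 value was −0.25 (log2, adjusted p = 0.0273). *DKK1* was lower with shRNA2 by −0.19 (0.0161), and *LRP10* by −0.29 (0.00129). As given above, the *FZD6* and *DKK1* differences did not pass without any 1 shRNA1 library or with only the 6 libraries compared.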

How the results depend on the processing

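Each called member kept its direction under every alternative that was run. Of 20 alternative limma analyses of pooled knockdown, *LRP6* was called in 20, *FZD2* in 17, *FZD5* and *LRP5* in 14 each and *PTK7* in 7. Leaving out each library in turn gave 997 to 3255 genes called for pooled knockdown (2578 in the main analysis), 917 to 3538 for shRNA1 (2357), 2097 to 4195 for shRNA2 (3335), 333 to 1172 between the hairpins (839) and 23 to 434 entries (248). The members called ranged from 1 to 6 for pooled knockdown, from 0 to 3 for shRNA1, from 4 to 5 for shRNA2 and from 0 to 1 between the hairpins. With the length trend removed, 1550 genes and 2 members were called for pooled knockdown and 1505 genes for shRNA1. With the locus span of *FZD2* as its length, chosen after seeing the data, the counts were 1549 genes and 2 members for pooled knockdown, and 1502 genes and 1 member for shRNA1. The study's criteria (unadjusted p under 0.01 and at least 1.2-fold) called 361, 450, 590 and 268 genes in the 4 comparisons, and 1 member for pooled knockdown, 1 for shRNA1 and 0 for shRNA2. With only the 6 libraries compared, 2117 genes were called for shRNA2 and 337 between the hairpins. Without the filter, 1 member (*LRP5*, adjusted p = 0.049) differed between the hairpins. With protein-coding accessions only, the difference in the summed Frizzled level was −10.4 in place of −13.6 FPKM. Except where the alternative itself uses fewer libraries or entries, the cause was not tested.

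Deviations of same-numbered libraries correlated at −0.071 to 0.111, within the −0.123 to 0.184 of differently numbered ones. This gave no sign that the numbers pair the libraries, but 3 libraries a group cannot exclude it. With the replicate block, 2377, 2525, 3558 and 802 genes and 4, 3, 6 and 0 members were called in the 4 comparisons, and 16 transcript entries. The block with length removal, added later, gave 1128 genes and 2 members for pooled knockdown and 1348 genes for shRNA1.

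With 3 libraries a group, several differences lay near the threshold, and *ROR2* was too low to compare.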
